A study of Mus musculus with 13 samples.

Results

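The cytosolic ribosomal protein genes encode the protein subunits of the 40S and 60S ribosome, and 81 of them were followed across 3 stages of mouse regulatory T cell (Treg) development with and without c-Rel, an NF-kB transcription factor subunit encoded by Rel. Members were taken by gene name (Rpl or Rps, a number, and an optional a, l, x or y), given a gene identifier present in all 3 deposited count tables. Of 22048 genes shared by the tables, 81 qualified, 50 of the large subunit (Rpl) and 31 of the small subunit (Rps). The pattern also matched 4 genes that stood only in the pre-Treg table, Rps3a2, Rps3a3, Rps4l and Rps12l1, and these were left out. It does not take ribosomal proteins with other kinds of names, such as Rplp0, Rpsa and Fau, which are given separately.

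All libraries came from C57BL6/J mice carrying a Foxp3rfp allele, a reporter of the Treg transcription factor Foxp3, with genotype cRel-/-Foxp3rfp or cRel+/+Foxp3rfp. CD4 T cells were enriched magnetically and sorted by flow cytometry to give thymic pre-Tregs (3 cRel-/- and 2 cRel+/+ libraries), thymic de novo Tregs (2 of each genotype) and splenic tTregs (2 of each genotype). The labels name no age or sex, nor the promoter or cell type of the deletion, and they do not say which libraries came from separate animals, so a p-value here covers library-to-library spread, part of which may be technical. Each stage has its own count table, and the spleen is also another tissue.

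Ribosomal proteins assemble on ribosomal RNA in the nucleolus, and their mRNAs are among the most abundant in dividing cells. Many of these mRNAs begin with a C followed by a run of pyrimidines, the 5′ terminal oligopyrimidine (TOP) start, through which the kinase mTOR and the protein Larp1 control their translation. In T cells, antigen receptor and interleukin signalling raise ribosome production as resting cells grow.

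Counts over the shared genes ranged from 13163398 to 35114430 per library. Rel, counted over the whole gene, stood at 61.6, 54.5 and 71.1 counts per 1000000 (CPM) in cRel-/- pre-Tregs and at 109 and 107 in cRel+/+ pre-Tregs. It stood at 87.3 and 94.6 CPM in cRel-/- de novo Tregs, against 99.1 and 96.7 in cRel+/+ ones, and at 42.1 and 44.4 in cRel-/- splenic Tregs, against 45.5 and 54.9 in cRel+/+ ones. A gene-level count does not show which exons were read, so it does not check the genotype labels. Foxp3 was at 658 to 894 CPM in the de novo and splenic libraries and at 22.2 to 109 CPM in the pre-Treg libraries. Cd3g was at 785 CPM or more in every library.

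2 of the 3 cRel-/- pre-Treg libraries stood apart from the rest. In replicate 1 every count was an even number: 0 of 19440 genes with reads had an odd count, while 52.5 to 53.3% of the genes with reads did in the other 4 pre-Treg libraries. Each value of that library is therefore 2 times a whole number, and its total may overstate its depth. Replicate 2, whose label carries a library name of another form than the other pre-Treg libraries, differed from them in the ribosomal protein genes themselves, as described with the pre-Treg results. Counts of called members from fits that include it are given with and without it. For genotype over all stages only the median is given without it.

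The members spanned a wide range of levels. Per kilobase of gene length, their median over the 13 libraries was 24.5 CPM, against 3.55 for the 16359 shared genes with any read, and 74 of the 81 members lay above that value. Among the highest were Rpl4 at 653 CPM per kb, Rpl8 at 545, Rpl32 at 529 and Rps14 at 357, all constitutive subunits. The lowest were Rpl10l, with 0 counts in every library, Rpl3l at 0.0801 CPM per kb, Rpl39l at 0.687, Rpl23a at 1.30 and Rpl24 at 1.89. Rpl10l, Rpl3l and Rpl39l are retrogene or paralogue copies known from testis or muscle, while Rpl23a and Rpl24 encode subunits found in every ribosome. The 3 members with the most counts held 25.4% of all member counts, the top 10 held 57.1% and the lowest 40 held 6.99%. Members were short genes: their median length was 1464 bases, against 2975 over all shared genes, and 69 of 81 lay below the latter value. They were spread over 19 chromosomes, with 4 on X.

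Where a gene has near-identical copies, the number of reads counted for it depends on how the counting treated reads that match more than 1 place, which is not given in the sources used here. Of the 81 members, 55 had processed copies that the pre-Treg table names as pseudogenes of them, 257 in all. Sharing was measured on transcripts of GENCODE M21 (GRCm38), 1 protein-coding transcript for each of 80 members. In the median member 41.3% of the windows of 50 bases occurred in no other gene, 46.8% of windows of 75 bases and 55.6% of windows of 100 bases. The 22 members with at most 25% unique 50-base windows had a median level of 8.44 CPM per kb, and the 12 members with over 75% had 51.9. Rps27 (1.35% unique), Rpl35 (4.91%) and Rpl5 (6.16%) were the least unique, while Rpl8 was unique in 92.1% of its windows. Across the 80 members, which share libraries and gene class, Spearman's rho of level with the unique share was 0.35, 0.42 and 0.46 for the 3 window lengths. Absolute levels, and the order of members by level, are therefore uncertain for much of the family.

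**Figure D1:**
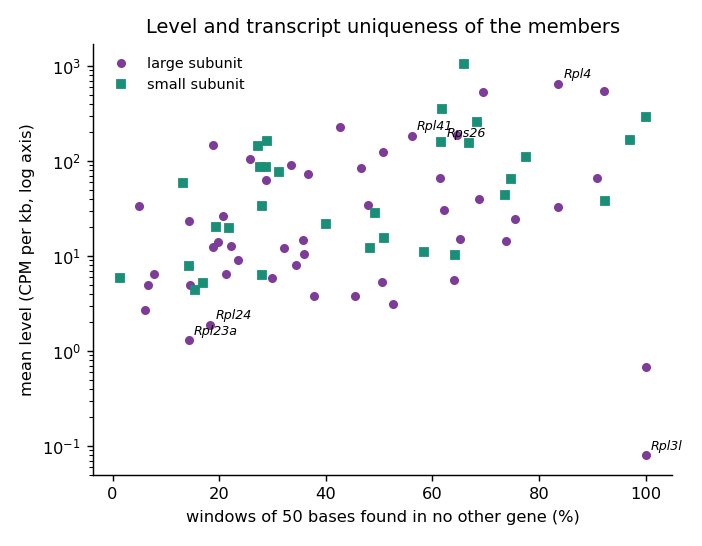
Mean level of each member over 13 libraries (CPM per kb, log axis) against the percentage of its transcript's 50-base windows found in no other gene; circles are large-subunit and squares small-subunit genes, and Rpl10l, at 0 counts, is not drawn. Rpl4 lies near the top, Rpl23a and Rpl24 at the lower left, and Rpl3l, a tissue-restricted copy, at the lower right.

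Annotated transcription starts were read from RefSeq (GRCm38.p6), whose promoter table matched 61 of the 81 members. A C at the annotated start followed by 4 pyrimidines was found in 12 of the 61 genes (19.7%), against 3.01% of the 27025 genes in that table. The windows below show 5 of the 12, chosen because Rpl14 and Rps18 fell in cRel-/- de novo Tregs, Rps6 is the substrate by which mTOR signalling is usually read, and Rps21 and Rps15a changed between stages. They are followed by Rpl41 and Rps26, which had the smallest p-values in de novo Tregs and whose annotated start is no pyrimidine. Each window runs from 12 bases before the annotated start to 16 from it, 5′ to 3′ on the gene's strand, and capitals mark the unbroken pyrimidines that begin at the start.
Rpl14: cgggccctctctCTTCTCgctgagcgcc
Rps18: gtcacttccgctCTCTCTTCCacaggag
Rps6: cggaagtcgggcCTCTTTTTCgtgacgc
Rps21: cgaggacccgccCTCCTgcccaatagtg
Rps15a: tctttctgccatCTTCCCTCgccggtga
Rpl41: acgggccggctcggaagtgacgacaccg
Rps26: gggcaagccgccggatcctctttcgagt

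The windows lie at chr9:120571505-120571532 (plus strand) for Rpl14, chr17:33955650-33955677 (minus) for Rps18, chr4:86857352-86857379 (minus) for Rps6, chr2:180257367-180257394 (plus) for Rps21 and chr7:118116132-118116159 (minus) for Rps15a. Those of Rpl41 and Rps26 lie at chr10:128549153-128549180 and chr10:128626491-128626518, both on the minus strand. In Rps26 a run of pyrimidines begins a few bases after the annotated start. An annotated start need not be the start used in these cells, which the counts do not show. A run of 8 or more pyrimidines within 10 bases of the start was present in 27.4% of the 73 member promoters and in 7.43% of all 32851 promoters. The motif CCGGAAG, bound by ETS factors, occurred on either strand in 34.2% of the member promoters and 8.86% of all, and AAGATGGCG, bound by YY1, in 8.22% and 1.40%. TATAAA occurred in 8.22% of member promoters and 13.6% of all. An NF-kB motif, GGG and TTTCC with 2 bases of any kind between them, was in 0 of the 73 member promoters and in 1.63% of all, which says only that these letters are not in windows of this length, 250 bases before to 50 after the start.

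As a share of counts, the ribosomal protein genes were lower in cRel-/- de novo Tregs than in their cRel+/+ counterparts, at 0.731 and 0.700% against 0.871 and 0.887%. The 2 genotypes did not overlap, and the ratio of the means was 0.814. In splenic Tregs the shares were 1.07 and 1.21% in cRel-/- and 1.26 and 1.23% in cRel+/+ libraries, a ratio of 0.916, again with no overlap but with a gap smaller than that between the 2 cRel-/- libraries. In pre-Tregs they were 0.731, 1.07 and 0.718% in cRel-/- and 0.595 and 0.752% in cRel+/+ libraries, and the groups overlapped. By group mean (± SD over 2 libraries, 3 for cRel-/- pre-Tregs) the shares were 0.841 ± 0.202% in cRel-/- and 0.673 ± 0.111% in cRel+/+ pre-Tregs. They were 0.716 ± 0.0221% and 0.879 ± 0.0111% in de novo Tregs, and 1.14 ± 0.0997% and 1.25 ± 0.0242% in splenic Tregs. Within cRel+/+ the share was higher at each later stage, without overlap. Within cRel-/- the de novo libraries lay within or just below the range of the pre-Treg libraries and the splenic libraries above both, except that pre-Treg replicate 2 stood above splenic replicate 1. Counting error is small beside the genotype gap in de novo Tregs. In the shallowest library, cRel+/+ pre-Treg replicate 2, the exact 95% binomial interval ran from 0.747 to 0.756%. The nearest splenic libraries of the 2 genotypes had intervals of 1.209 to 1.216% (cRel-/-) and 1.225 to 1.233% (cRel+/+). Those of cRel-/- replicate 1 in de novo Tregs and in pre-Tregs, both at 0.731%, overlapped. In bulk libraries, fewer cells of a type and less RNA per cell cannot be told apart.

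**Figure D2:**
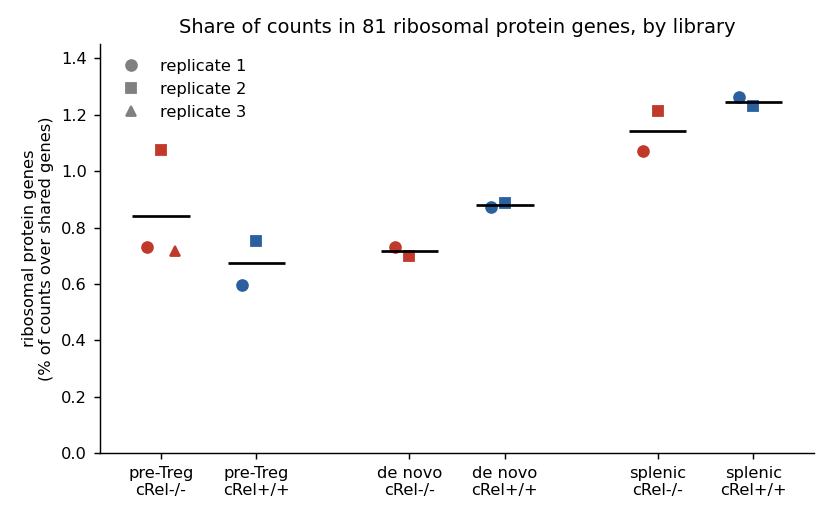
Percentage of counts over shared genes that fell in the 81 ribosomal protein genes, for each library (symbols are replicates, lines group means; red cRel-/-, blue cRel+/+). The de novo libraries separate by genotype, with 0.731 and 0.700% in cRel-/- against 0.871 and 0.887% in cRel+/+, and 1 cRel-/- pre-Treg library stands at 1.07%.

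In de novo Tregs, the absence of c-Rel went with lower levels of the family as a whole, by a small and similar amount in most members. Of 79 members tested, 0 rose and 21 fell at an adjusted p under 0.05 (edgeR quasi-likelihood test, Benjamini-Hochberg over all 11855 genes); over all genes 3.54% fell and 2.92% rose. The median log2 fold change (cRel-/- over cRel+/+) was −0.29 over the members (quartiles −0.39 and −0.20), and 75 of 79 lay below 0; over all genes tested the median was −0.0027. In 70 of the 79 members both cRel-/- libraries lay below both cRel+/+ libraries, as did 24.6% of all genes, and in 0 members they lay above, against 22.9% of all genes. The 2 subunits had alike medians, −0.29 over 48 large-subunit and −0.30 over 31 small-subunit genes, with 7 and 14 calls. The 21 called members had log2 fold changes from −0.60 to −0.28 and a median level of 155 CPM, while the members that were not called had a median of 24.2 CPM. The 4 members above 0 were Rps29, Rpl39l, Rpl23a and Rpl24, all at low counts and none called.

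Rpl41, which encodes the shortest ribosomal protein (ENSMUSG00000093674, chromosome 10, GRCm38), had 159 and 156 CPM in cRel-/- de novo Tregs, against 242 and 229 CPM in cRel+/+ ones. The groups were far apart and the replicates close, and the log2 fold change was −0.57 (SE 0.08, edgeR adjusted p = 0.00100). Rps26, a subunit of the mRNA exit site (ENSMUSG00000025362, also on chromosome 10), had 46.2 and 43.3 CPM in cRel-/- and 65.2 and 70.3 CPM in cRel+/+ cells (log2 fold change −0.58, SE 0.10, adjusted p = 0.00401). Rpl39, a small protein lining the peptide exit tunnel, gave the largest fall among the called members: 23.4 and 22.6 CPM in cRel-/- against 34.6 and 35.6 CPM in cRel+/+ libraries (log2 fold change −0.60, SE 0.11, adjusted p = 0.00792).

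More abundant subunits fell too. Rpl32 had 423 and 394 CPM in cRel-/- and 546 and 534 CPM in cRel+/+ de novo Tregs (log2 fold change −0.39, adjusted p = 0.00725). Rps20 had 112 and 107 CPM against 148 and 150 CPM (−0.43, adjusted p = 0.00699). Rps2, which lines the mRNA entry channel, had 120 and 118 CPM in cRel-/- against 166 and 154 CPM in cRel+/+ cells (−0.41, adjusted p = 0.0108). In these 3 members, as in the previous 3, no cRel-/- library reached a cRel+/+ one, as in 24.6% of all genes. These members were named for their small p in the same comparison, so the separation is no separate evidence. Rpl14 (log2 fold change −0.40, adjusted p = 0.0146) and Rps24 (−0.47, adjusted p = 0.0165) completed the 8 members with the smallest p-values. Rps19, a gene mutated in Diamond-Blackfan anaemia, fell by 0.33 on the log2 scale (adjusted p = 0.0186), at 250 and 240 CPM in cRel-/- against 312 and 311 CPM in cRel+/+ libraries. Rps25, which viral internal ribosome entry depends on, fell by 0.39 (adjusted p = 0.0290).

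Several members with known special roles did not pass the test in de novo Tregs. Rpl5 and Rpl11, which bind the p53 regulator Mdm2 together with 5S RNA, had log2 fold changes of −0.08 (SE 0.18) and −0.15 (SE 0.17). Rps6 was at −0.23 (SE 0.19), Rps14 at −0.14 (SE 0.07), Rpl10a at −0.12 (SE 0.11), Rpl38, known from mouse patterning, at −0.36 (SE 0.15), Rps29 at 0.04 (SE 0.23) and Rps27a, made as a fusion with ubiquitin, at −0.20 (SE 0.17). Their adjusted p (edgeR) ran between 0.241 for Rpl38 and 0.954 for Rps29. A p above the threshold does not show that these members did not differ: 7 of the 8 had a fold below 0. Of the 12 members with a TOP start, 2 were called and 12 lay below 0, with a median of −0.35; of 47 other matched members, 13 were called and 45 lay below 0, with a median of −0.30.

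**Figure D3:**
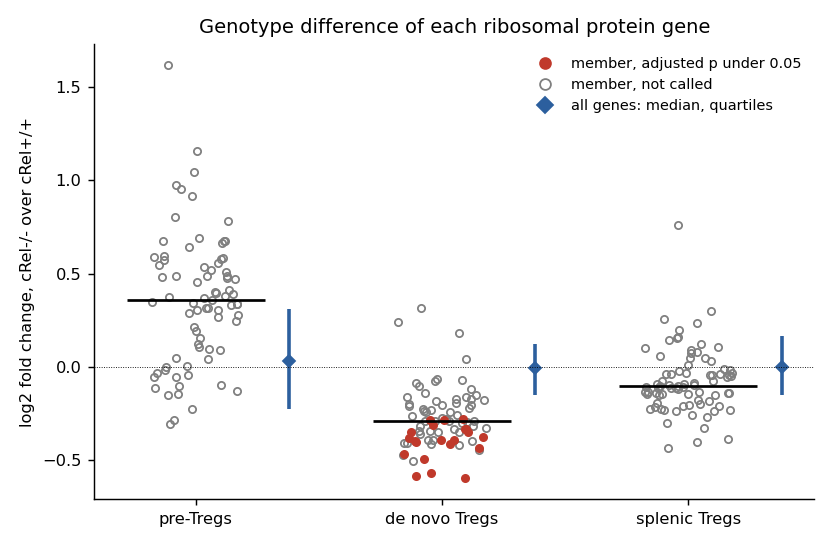
Log2 fold change of each tested ribosomal protein gene, cRel-/- over cRel+/+, at 3 stages (filled red: adjusted p under 0.05 by edgeR; open: not called; black line: median of members; blue: median and quartiles of all genes). Medians were 0.36, −0.29 and −0.10, with 21 calls in de novo Tregs and 0 at the other stages.

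The call depends on how the spread is estimated and on single libraries. With the spread shared over all 13 libraries, which include the divergent pre-Treg libraries, 0 of 79 members were called in de novo Tregs and 0.766% of all genes were, at a biological coefficient of variation of 0.189 instead of 0.0939. Without cRel-/- pre-Treg replicate 2 in that shared fit (12 libraries) 1 member, Rpl41, was called lower, as were 1.29% of all genes, at a coefficient of 0.131. Within the stage, leaving out cRel-/- replicate 1 gave 18 calls, all lower, beside 2.94% of all genes lower, and leaving out cRel-/- replicate 2 gave 10 beside 3.61%. Leaving out cRel+/+ replicate 1 gave 8 beside 2.38% and cRel+/+ replicate 2 gave 6 beside 2.51%, with the lone library of a group assumed to vary like the others. Rpl41, Rps26, Rps20, Rpl32 and Rpl39 were called in each of those 4 fits, and all 21 members kept a fold below 0 in each.

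Other features moved with genotype in the same libraries, and their part in the result was not tested. Mitochondrially encoded genes took 0.294 and 0.298% of counts in cRel-/- and 0.429 and 0.460% in cRel+/+ de novo Tregs. Erythroid and platelet markers, 8 genes led by the haemoglobin genes, summed to 0.597 and 0.927 CPM in cRel-/- against 106 and 2.94 CPM in cRel+/+ libraries, with Pf4 at 0 in all 4. Of the 3 genes of that list tested, 2 were called lower. B and plasma cell markers summed to 426 and 408 CPM against 203 and 170 CPM, most of it Cd74 (389 and 375 CPM against 170 and 140), which activated T cells can also express, while Pax5 was at 0 in both cRel-/- libraries. Of the 5 genes of that list tested, 2 lay above 0 and 3 below, with 2 called higher and 1 lower. Their median log2 fold change was −0.027. Myeloid and dendritic markers summed to 148 and 127 CPM against 157 and 156 CPM, with 8 of 9 below 0 and 0 called. The thymic stroma list summed to 309 and 308 CPM against 231 and 231 CPM, carried by Pecam1 and Epcam, with Pdgfra and Psmb11 at 0 in all 4. Of its 3 genes tested, 2 were called higher. Among CD8 T and NK markers 1 of 6 was called lower, and among T cell and Treg markers 2 of 8 were called higher. Over all genes 3.54% were called lower and 2.92% higher. Short genes were also lower: genes under 750 bases had a median log2 fold change of −0.088 (211 genes) and those of 6000 bases and over 0.011 (3078 genes). Members lay below the genes of their own length class in every class, with a median of −0.32 over 10 members under 750 bases, −0.30 over 30 from 750 up to 1500, −0.33 over 27 from 1500 up to 3000 and −0.24 over 11 from 3000 up to 6000 bases.

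Lists next to the family were read in the same fit, in which 3.54% of all genes fell and 2.92% rose. Of 7 ribosomal proteins that the name pattern misses, 4 fell in cRel-/- de novo Tregs, the stalk proteins Rplp0, Rplp1 and Rplp2 and the small-subunit protein Rpsa, with log2 fold changes from −0.47 (Rplp2) to −0.26 (Rplp0), and the median of the 7 was −0.26. Fau, a fusion of a ubiquitin-like protein with a ribosomal protein, was not called. Of 18 translation factors and other TOP mRNAs, 5 fell and 1 rose, with a median of −0.22. Those that fell were Npm1 (−0.49), Eif4b (−0.40), Pabpc1 (−0.35), Eef1b2 (−0.33) and Eef1a1 (−0.26), which encode a nucleolar chaperone, an initiation factor, the poly(A)-binding protein and elongation factor subunits. Vim, the intermediate filament vimentin, rose by 0.46. Of 27 ribosome biogenesis genes, 2 fell, Npm1, which is also in the list before, and Ncl (−0.34), and the median was −0.13. The called share of this list was 7.41%, near the 6.46% of all genes called in either direction. Among the genes that control ribosomal protein mRNAs (Mtor, Larp1, Myc and others), 0 of 18 were called and the median was 0.0010. Among 76 mitochondrial ribosomal proteins and 82 nuclear-encoded respiratory chain genes, 0 were called in each, with medians of −0.036 and −0.049. The mitochondrially encoded genes fell in 7 of 11 cases, with a median of −0.64, among them mt-Cytb (−0.57), mt-Nd5 (−0.68), mt-Nd1 (−0.64) and mt-Co1 (−0.54).

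In splenic Tregs the family was slightly lower in cRel-/- cells, but 0 of 79 members were called by edgeR, with 5 at an unadjusted p under 0.05, and likewise 0 by DESeq2 and limma-voom; over all genes 1.37% were called. The median log2 fold change was −0.10, with 60 of 79 below 0, against 0.00055 over all genes. In 30 members both cRel-/- libraries lay below both cRel+/+ ones and in 7 above, against 23.3% and 23.1% of all genes. Rps26 had 71.4 and 71.1 CPM in cRel-/- and 97.2 and 89.4 CPM in cRel+/+ splenic Tregs (log2 fold change −0.39, SE 0.11, adjusted p = 0.148). Rpl41 had 253 and 282 CPM against 311 and 308 CPM (−0.21, SE 0.10, adjusted p = 0.391). Rps19 had 403 and 536 CPM in cRel-/- against 439 and 442 CPM in cRel+/+ libraries, where the 2 cRel-/- libraries lie on either side.

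The 2 cRel-/- splenic libraries differed from each other. The members' median deviation from the stage mean was −0.15 in cRel-/- replicate 1 and 0.059 in replicate 2, against 0.075 and 0.032 in the cRel+/+ libraries. Without replicate 1 the median log2 fold change was 0.012, with 3 members higher and 4 lower, beside 8.58% and 11.4% of all genes. Without replicate 2 it was −0.20, with 25 members lower, beside 6.05% of all genes. In both fits 1 cRel-/- library stands alone and is assumed to vary like the cRel+/+ libraries. Rps26 was called lower in both. Marker lists of other cells also differed between the genotypes. B and plasma cell markers summed to 627 and 482 CPM in cRel-/- and 231 and 272 CPM in cRel+/+ splenic libraries, mostly Cd74. Myeloid and dendritic markers summed to 163 and 140 CPM against 189 and 221 CPM, with 10 of 12 below 0 and a median of −1.02. CD8 T and NK markers summed to 35.8 and 29.2 CPM against 45.8 and 43.5 CPM, and thymic stroma markers to 302 and 272 CPM against 248 and 226 CPM. T cell and Treg markers summed to 5990 and 5686 CPM against 5655 and 5423 CPM. None of these sums overlapped between the genotypes, and their part in the result was not tested. Among all genes, 23.3% lay below and 23.1% above in cRel-/- libraries without overlap. The neighbouring lists had 0 calls in the splenic comparison, with medians of −0.24 over the 7 other ribosomal proteins and −0.20 over the 18 translation genes.

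In pre-Tregs the family was higher in cRel-/- cells by the median, but no member passed the test. Of 77 members tested, 0 were called, as were 0% of all 14746 genes; 3 members and 969 genes had an unadjusted p under 0.05. DESeq2 called 88 genes in all and limma-voom 0, and both called 0 members. The median log2 fold change was 0.36 (63 of 77 above 0), against 0.032 over all genes, and 10 members had every cRel-/- library above every cRel+/+ library, against 13.3% of all genes. Without cRel-/- replicate 2 the median was 0.10, with 0 calls beside 0.447% of all genes. The biological coefficient of variation was 0.284, and on simulated counts fewer of the genes changed 2-fold were recovered than at the other stages; smaller changes were not simulated.

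Other lists moved with genotype in the pre-Treg libraries too, with 0 genes called in each, and their part in the result was not tested. Myeloid and dendritic markers summed to 239, 152 and 162 CPM in cRel-/- and 96.4 and 146 CPM in cRel+/+ libraries, with 11 of 12 above 0 and a median log2 fold change of 1.53. Most of each sum was Cst3, while Csf1r, a macrophage receptor, was at 6.72, 0.141 and 3.02 CPM against 0 and 1.22 CPM. B and plasma cell markers summed to 259, 320 and 349 CPM against 141 and 178 CPM, with 6 of 7 above 0 and a median of 0.74; Pax5 was at 0 in 2 of the 3 cRel-/- libraries. Neither sum overlapped between the genotypes. The thymic stroma sums, 237, 222 and 244 CPM against 204 and 200 CPM, did not overlap either. Nor did those of T cell and Treg markers, 4380, 4369 and 4371 CPM against 4390 and 4770 CPM. Among all genes, 13.3% lay above and 13.7% below in cRel-/- libraries without overlap. Mitochondrially encoded genes lay below 0 in 8 of 8 cases, with a median of −0.50, but their shares of counts overlapped, at 0.810, 0.388 and 0.508% in cRel-/- and 0.658 and 0.965% in cRel+/+ libraries. Erythroid and platelet markers lay below 0 in 5 of 5 cases, and their sums overlapped. In replicate 2, the library with the highest ribosomal protein share, the myeloid sum was the lowest of the 3 cRel-/- libraries and the mitochondrial share the lowest of the 5.

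Much of the pre-Treg difference sat in cRel-/- replicate 2. Members lay at a median of 0.60 above the mean of the 5 pre-Treg libraries in that library (log2), against −0.11 and −0.086 in cRel-/- replicates 1 and 3 and −0.35 and −0.042 in the cRel+/+ libraries. Rpl41 had 129, 373 and 144 CPM in cRel-/- replicates 1, 2 and 3 and 98.8 and 132 CPM in cRel+/+ pre-Tregs. Rpl36 had 19.3, 83.3 and 21.4 CPM in cRel-/- libraries, against 14.7 and 23.2 CPM in cRel+/+ ones. Rpl30, a large-subunit protein that regulates its own splicing in yeast, went the other way, with 53.1, 24.1 and 43.0 CPM in cRel-/- and 37.7 and 48.2 CPM in cRel+/+ libraries. Rpl6l, a gene named for its likeness to Rpl6, had 0, 20.7 and 0.0617 CPM in cRel-/- pre-Tregs and 0.0760 and 0 CPM in cRel+/+ ones, while every de novo and splenic library had 13 CPM or more. In each of these 4 members replicate 2 was nearer to the de novo libraries than to the other pre-Treg libraries, which the plot of 6 genes by library shows for Rpl41, Rpl36 and Rpl30.

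**Figure D4:**
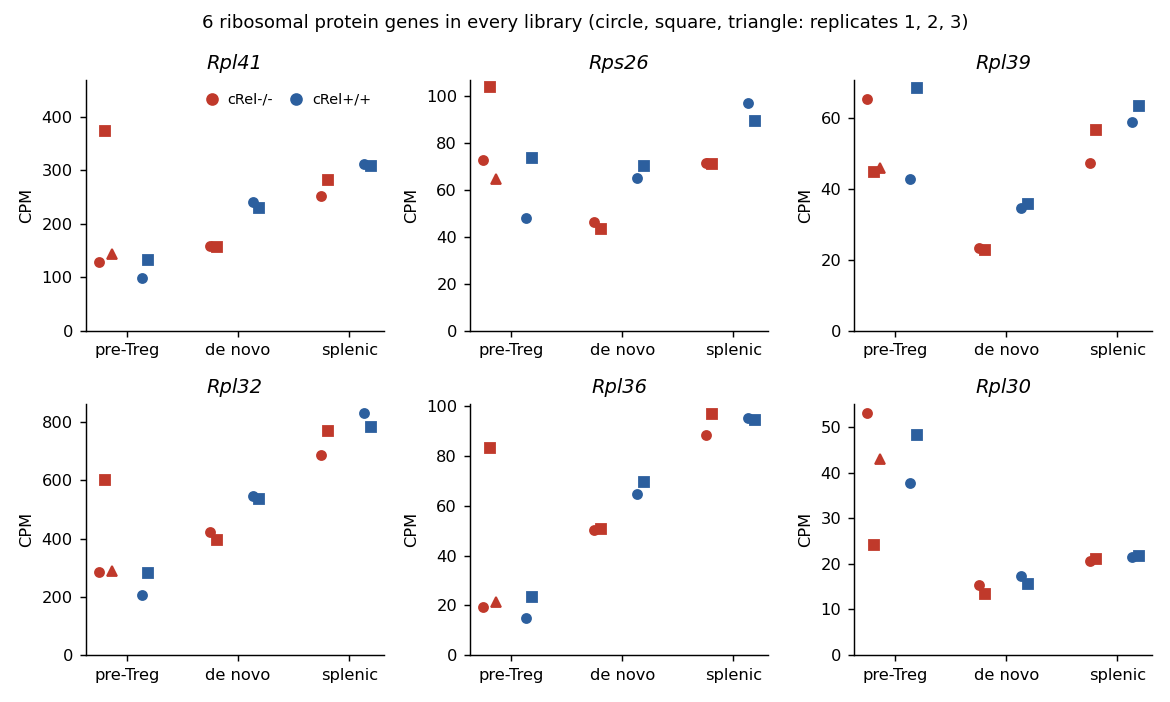
CPM of 6 ribosomal protein genes in every library (red cRel-/- left of blue cRel+/+ at each stage; symbols are replicates). All 6 lie lower in cRel-/- than in cRel+/+ de novo Tregs without overlap, as did 24.6% of all genes. In pre-Tregs replicate 2 of cRel-/- is far above the other 4 libraries in Rpl41, Rpl32 and Rpl36 and far below them in Rpl30.

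The pattern across members in that library was set beside the stage difference in cRel+/+ cells, which uses none of the same libraries. Over the 77 members with a mean of at least 30 counts, the log2 ratio of replicate 2 over the mean of replicates 1 and 3 had a median of 0.55 (quartiles 0.043 and 0.79). Its Spearman correlation with the log2 ratio of de novo over pre-Treg in cRel+/+ cells was 0.91, and Pearson's r was 0.92 without Rpl6l. With the log2 ratio of splenic over de novo Tregs in cRel+/+ cells the Spearman correlation was 0.21. Points share gene class, length and annotation, and no p is given. De novo cRel-/- over replicate 2 alone had an SD over members of 0.29 around a median of −0.70, while de novo cRel-/- over replicates 1 and 3 had an SD of 1.01 around −0.20 (0.64 without Rpl6l). Foxp3 in that library, at 51.3 CPM, was within the range of the pre-Treg libraries. Counts of the named pseudogenes of members, which only the pre-Treg table holds, came to 39.1% of the member counts in replicate 2 and to 19.9 to 20.6% in the other 4 libraries. The 3 name matches left out with reads moved likewise: Rps3a2 had 328, 3059 and 323 counts in cRel-/- and 250 and 321 in cRel+/+ pre-Tregs, Rps3a3 had 14, 309 and 8 against 2 and 13, and Rps4l had 14, 86 and 10 against 15 and 9.

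**Figure D5:**
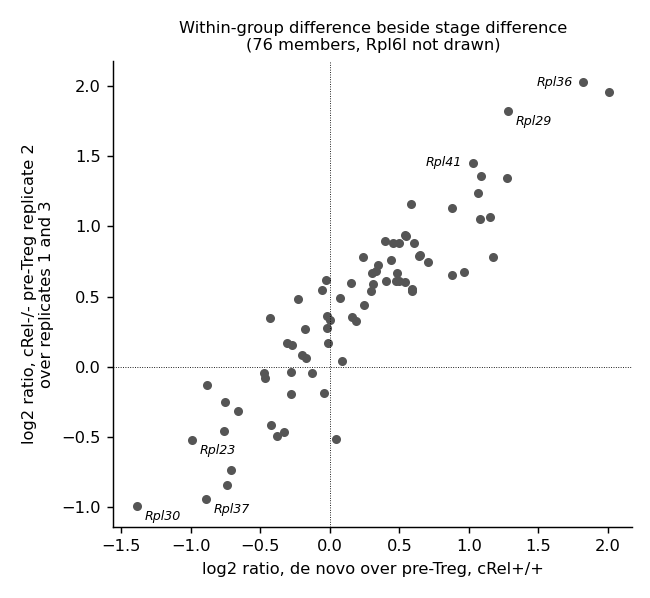
Each point is 1 of 76 members: the log2 ratio of cRel-/- pre-Treg replicate 2 over replicates 1 and 3 (vertical) against the log2 ratio of de novo over pre-Treg in cRel+/+ cells (horizontal), on CPM + 0.1; Rpl6l, at 7.31 and 6.94, lies outside the axes. Rpl36 and Rpl29 are among the members with the largest ratios on both axes, and Rpl30 and Rpl37 are among the lowest on both.

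With all stages fitted together 0 of 79 members were called by genotype, with 5 at an unadjusted p under 0.05; DESeq2 and limma-voom also called 0, and over all genes 0.85% were called by edgeR. The median log2 fold change was 0.0030, with 40 members above 0 and 39 below, and it was −0.024 by limma-voom, with 48 below 0, −0.11 without cRel-/- pre-Treg replicate 2 and −0.089 without cRel+/+ pre-Treg replicate 1. The test of whether the genotype difference changed with stage called 0 of 79 members (10 at an unadjusted p under 0.05), against 0.161% of all genes, and limma-voom also called 0. Without cRel-/- pre-Treg replicate 2 it also called 0, against 2.28% of all genes. The smallest adjusted p in the fit of all libraries was 0.163, for Rps28. The fall in de novo Tregs is therefore not shown to differ from the other stages. Without cRel-/- pre-Treg replicate 1, 1 member was called, beside 1.66% of all genes; this was Rpl27, chosen after its values were seen.

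Between stages, members moved in both directions. In cRel+/+ cells, 22 members rose and 6 fell in de novo Tregs relative to pre-Tregs, out of 79, with 16.1% of all genes higher and 14.7% lower; the median log2 fold change was 0.45, against −0.0015 over all genes. The largest rise was that of Rpl6l, at 16.1 and 17.7 CPM in de novo against 0.0760 and 0 CPM in pre-Tregs, where a fitted fold depends on the prior count. Large rises were also those of Rpl36 (log2 fold change 1.99, adjusted p = 0.0189), Rpl29 (1.44, adjusted p = 0.0403) and Rpl21 (1.44, adjusted p = 0.0160). Rpl36 stood at 64.9 and 69.4 CPM in de novo and 14.7 and 23.2 CPM in pre-Tregs. Rps6, Rps14, Rps19, Rpl10a and Rpl11 of the members named for their roles also rose, with log2 fold changes of 1.14, 0.75, 1.04, 0.70 and 0.76. The falls were led by Rpl30 (−1.23, adjusted p = 0.00542), Rpl23 (−0.83), Rpl37 (−0.73), Rps27l (−0.72), a p53-inducible paralogue of Rps27, and Rps15a (−0.60). Rpl30 had 17.2 and 15.6 CPM in de novo and 37.7 and 48.2 CPM in pre-Tregs. The 2 stages come from count tables made separately, so stage and table cannot be told apart. Leaving out 1 of the 4 libraries compared gave 7 calls (without pre-Treg replicate 1), 8 (pre-Treg replicate 2), 4 (de novo replicate 1) and 1 (de novo replicate 2), beside 11.4%, 13.1%, 12.5% and 9.41% of all genes. Without cRel-/- pre-Treg replicate 2, which enters this comparison only through the shared spread, 37 rose and 9 fell, beside 46.4% of all genes called.

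In cRel-/- cells 0 members rose and 22 fell in de novo Tregs relative to pre-Tregs, with 15.4% of all genes higher and 17.0% lower, and the median was −0.25, against −0.058 over all genes. The absence of rises depended on pre-Treg replicate 2, while falls were called with and without it. Without it 23 rose and 24 fell, with 24.6% of all genes higher and 25.7% lower, and the median was 0.025; with it as the only pre-Treg library of that genotype, 51 members were called, beside 30.7% of all genes, and the median was −0.54. The members that fell most in the fit of all libraries were Rpl30 (−1.27), Rpl37 (−1.13), Rps21 (−1.02), Rpl23 (−0.98) and Rpl39 (−0.97), with adjusted p of 0.00324 or less. Rps21 had 20.3 and 17.7 CPM in de novo and 41.3, 51.4 and 39.6 CPM in pre-Tregs. The cRel+/+ and cRel-/- stage comparisons share no library. The difference between them was tested above only jointly with that of the spleen, and not alone.

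In the spleen the family was higher than in de novo Tregs in both genotypes. In cRel+/+ cells 5 members rose and 0 fell, with 3.50% of all genes higher, and the median was 0.42, with 67 of 79 above 0, against 0.0021 over all genes. They were Rpl37a (0.92, adjusted p = 0.0186), Rps21 (0.80, adjusted p = 0.0204), Rps28 (0.79, adjusted p = 0.00494), Rpl39 (0.77, adjusted p = 0.0433) and Rps25 (0.69, adjusted p = 0.0333). Rps28 had 59.7 and 59.1 CPM in splenic and 33.4 and 33.9 CPM in de novo Tregs of cRel+/+ mice. In cRel-/- cells 23 rose and 0 fell, with 6.48% of all genes higher, and the median was 0.63, with 76 of 79 above 0. They were led by Rpl37a (1.18, adjusted p = 0.00311), Rpl39 (1.13, adjusted p = 0.00423), Rps21 (1.11, adjusted p = 0.00211), Rps16 (1.08, adjusted p = 0.0479) and Rps24 (1.06, adjusted p = 0.0105). Rpl37a stood at 44.7 and 54.1 CPM in splenic and 21 and 21.4 CPM in de novo cRel-/- Tregs. Leaving out 1 of the libraries compared gave fewer calls. In cRel+/+ cells 0 members were called without de novo replicate 1, beside 0.724% of all genes higher. It was 1 member without de novo replicate 2 (1.23%), splenic replicate 1 (1.16%) or splenic replicate 2 (0.977%). In cRel-/- cells 6 rose without de novo replicate 1 (2.30% of all genes) or 2 (2.61%), 15 without splenic replicate 1 (3.88%) and 5 without splenic replicate 2 (3.05%). Without cRel-/- pre-Treg replicate 2, which enters only through the shared spread, 36 members rose in cRel+/+ and 54 in cRel-/- cells, with 8.59% and 11.3% of all genes higher.

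Several members are paralogue pairs, given here side by side. Rpl22 had 43.6 to 90.8 CPM in the 7 cRel-/- libraries and 53.5 to 93.8 CPM in the 6 cRel+/+ libraries, and Rpl22l1, whose mRNA Rpl22 represses, had 8.84 to 28.4 and 12.3 to 26.0 CPM. Neither was called by genotype at any stage; in de novo Tregs Rpl22 was at −0.35 (SE 0.11, adjusted p = 0.0833) and Rpl22l1 at −0.51 (SE 0.17, adjusted p = 0.121). Rps27 was counted at 3.8 to 9.35 CPM and Rps27l at 57.5 to 164 CPM over the 13 libraries, while only 1.35% of the 50-base windows of Rps27 are unique to it. In pre-Tregs Rps27 was at 0.67 and Rps27l at −0.31, neither called. Rpl7 and its relative Rpl7l1 were at −0.24 and −0.07 in de novo Tregs and at 0.48 and −0.29 in pre-Tregs, none of these called. Rpl7l1 stayed between 143 and 215 CPM in the 13 libraries. Rpl36al exceeded Rpl36a in every library, at 62.0 to 139 CPM against 6.23 to 13.2 CPM. Only 14.5% of the 50-base windows of Rpl36a are unique to it, and 36.7% of those of Rpl36al, so their order by level is uncertain. Rps4x, the X-linked form of the small-subunit protein, fell by 0.37 in de novo Tregs (adjusted p = 0.0211), at 105 and 97.4 CPM in cRel-/- against 129 and 136 CPM in cRel+/+ libraries. The tissue-restricted copies Rpl3l and Rpl39l stayed at 1.31 CPM or less in every library.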

How the data were processed

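The values are the deposited whole-number counts of reads per gene, not normalised by the authors; per the submitters' processing notes, STAR 2.5.2, featureCounts and Subread 1.5.2, Picard 2.9.0, FastQC, MultiQC and limma were used on GRCm38. The sources used here give neither the annotation release nor the strandedness or treatment of multi-mapping reads. Gene lengths are those deposited in the pre-Treg table. All 13 per-sample columns were used and 0 left out.

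CPM is counts per 1000000 counts over the 22048 shared genes. Genes were tested with edgeR 4.0.16 in R 4.3.3 (TMM scaling; filterByExpr at min.count 10, min.total.count 15; quasi-likelihood F-test) within each stage, on all genes of its table; genotype over all stages, the interaction and the stage comparisons used the 13 libraries and shared genes. A gene is called, and said to rise or fall, at a Benjamini-Hochberg adjusted p under 0.05 over all genes tested. After the filter 77 members were tested in pre-Tregs and 79 elsewhere; a member passes where it is high enough in a group. Fold changes carry a standard error (SE) computed as the absolute log2 fold change divided by the square root of its F statistic. Shares of counts have no test. Exact binomial intervals and floors (3 counts, 0.0854 to 0.228 CPM) cover counting error only. limma 3.58.1 (voom) and DESeq2 1.42.0 were alternatives. No pair of replicates was a duplicate: the chi-square per degree of freedom over genes was 9.16 to 132.

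On simulated counts, edgeR recovered 15.0% of changed genes in pre-Tregs, 75.4% in de novo and 73.0% in splenic Tregs at a 2-fold change. Members and lists were chosen with earlier results of these data known. Named members were up to 8 called by smallest adjusted p in each genotype comparison, the 5 largest called rises and falls of each stage comparison with at least 5 CPM, the 5 highest and 5 lowest by level, and a set of members with known roles or paralogues; some genes the rule takes are not reported here. From each other list, up to 4 called genes were named per genotype comparison; Eef1a1, Eef1b2, the 4 members above 0 in de novo Tregs and the members named for unique sequence or start were added after their values were seen.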

Additional observations from a re-analysis of the deposited data

Results flagged for a closer look

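In cRel-/- pre-Treg replicate 2, counts of the named pseudogenes of ribosomal protein genes, which are outside the comparisons above and stand only in the pre-Treg table, came to 39.1% of the member counts, above the 19.9 to 20.6% of the other 4 pre-Treg libraries, cRel+/+ included.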

How the results depend on the processing

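Depth and spread limit these results most in pre-Tregs, where 1 library holds only even counts and another stands apart; with counts of cRel-/- pre-Treg replicate 1 halved (chosen after seeing the data) no count of calls or median moved beyond the limits used here. Deviations of same-numbered libraries correlated at −0.17 and −0.16 in pre-Tregs, −0.01 in de novo and −0.11 in splenic Tregs. With so few libraries per group, these values do not show whether libraries were prepared in pairs. In pre-Tregs the replicate numbers of some cRel-/- libraries also differ from the numbers in their library names. Pairs matched by those names were not tested. With the replicate number as a block 0, 21 and 0 members were called in pre-Tregs, de novo and splenic Tregs. With the splenic numbers crossed (added later) 0 were called. 

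In de novo Tregs, the calls were 0 with the spread shared over 13 libraries, 1 with it shared over 12 (without cRel-/- pre-Treg replicate 2, added later), and 6 to 18 with 1 library of the stage left out, with medians of −0.32 to −0.26. RLE scaling, TMM without ribosomal and mitochondrial genes, no filter, DESeq2 and voom gave 21 to 24 calls. In splenic Tregs, leaving out 1 library gave 0 to 25 calls and medians of −0.20 to 0.012, and for the interaction 0 to 1 call. For de novo over pre-Treg in cRel+/+ it gave 1 to 8 calls and medians of 0.20 to 0.61; for splenic over de novo in cRel+/+, 0 to 1 calls and 0.43 to 0.46. For de novo over pre-Treg in cRel-/- it gave 9 to 47 calls and medians of −0.36 to 0.025, and without replicates 1 and 3 (added later) 51 calls and −0.54. For splenic over de novo in cRel-/- it gave 5 to 15. Without cRel-/- pre-Treg replicate 2 in the shared spread (added later), de novo over pre-Treg in cRel+/+ had 46 calls and splenic over de novo 36 in cRel+/+ and 54 in cRel-/-. The causes were not tested, beyond the smaller number of libraries. Per kilobase, the share of counts was 2.09% and 1.69% in cRel-/- and cRel+/+ pre-Tregs, 1.78% and 2.15% in de novo and 2.76% and 3.01% in splenic Tregs; it kept its order under the other denominators. Alternative fits were tallied for the members called in de novo Tregs, those named in the stage comparisons, and Rps26 and Rpl41 in pre-Tregs and spleen. Of these fits 369 left the status unchanged, called or not called, 144 lost a call, 3 gained one and 0 reversed in direction. Most of these members were chosen because they were called, so few gains or reversals could appear. Named members that were not called are mostly outside this tally.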
